A study of Mus musculus with 8 samples.

Results

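Mitotic tumour cells are here the 7633 cells, of 34719 tumour cells and 38460 deposited cells, whose RNA held at least 0.1% of unique molecular identifiers (UMIs, 1 per captured transcript) from 6 genes of late cell division, Ccnb1, Ccnb2, Cdc20, Plk1, Aurka and Ube2c. A tumour cell was a cell with at least 500 detected genes, at most 10% mitochondrial UMIs, and at least 0.2% of its UMIs from eGFP and Mycl together. The cells were thus chosen by the measured values of these genes, and the genes' higher level in them only describes the choice. The other 27086 tumour cells served as the reference within each library.

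All libraries came from N2N1G, a mouse small cell lung cancer cell line, grown as an allograft, that is, after transplantation into mice. Cells were injected directly into the brain (2 libraries), given through the tail vein to reach the liver (3 libraries), or injected directly under the skin of the flank (3 libraries, called subcutaneous). Each allograft started from an equal number of cells and was taken after 3 weeks. Healthy cells were sorted from dissociated tumours, and 10x Genomics 3' libraries were made from them. No group received a drug, and all share the 1 line. The labels give neither the hosts' strain nor their age, and do not say whether each library came from a separate animal, so p-values measure the spread between libraries, which may be technical.

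A dividing cell copies its DNA in S phase, prepares for division in G2 and segregates its chromosomes in mitosis. Cyclin B with Cdk1 drives entry into mitosis, Plk1 and the Aurora kinases build the spindle, and the anaphase-promoting complex, with its activator Cdc20 and its ubiquitin-conjugating enzymes Ube2c and Ube2s, ends mitosis by marking cyclin B and securin for destruction. The mRNAs of these genes are made late in the cycle, from late S phase through G2 and mitosis, so a share of mRNA marks a range of cell-cycle positions and not mitotic figures. Small cell lung cancer is a neuroendocrine tumour known for a high rate of division.

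The promoters of the 6 genes are shown because the genes move together and because late cell-cycle promoters are known for the cell cycle homology region (CHR, bound by complexes of the MuvB core) beside CCAAT boxes (bound by NF-Y). Each line is the stretch of 120 bases from 110 before to 10 after the RefSeq start on GRCm38.p6, 5′ to 3′ in the direction of transcription. Capitals mark matches on either strand to CCAAT, to the CHR letters TTTGAA, and to the CHR variant TTTAAA.
Ccnb1, chr13:100786477-100786596, minus strand: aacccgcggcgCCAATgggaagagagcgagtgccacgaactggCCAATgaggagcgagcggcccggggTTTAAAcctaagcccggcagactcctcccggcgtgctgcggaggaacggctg
Ccnb2, chr9:70421545-70421664, minus strand: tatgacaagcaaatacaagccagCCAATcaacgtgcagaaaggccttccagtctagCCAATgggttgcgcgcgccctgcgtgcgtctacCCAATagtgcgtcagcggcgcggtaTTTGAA
Cdc20, chr4:118437334-118437453, minus strand: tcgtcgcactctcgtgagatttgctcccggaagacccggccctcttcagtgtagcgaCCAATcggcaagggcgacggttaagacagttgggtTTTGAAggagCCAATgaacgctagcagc
Plk1, chr7:122159325-122159444, plus strand: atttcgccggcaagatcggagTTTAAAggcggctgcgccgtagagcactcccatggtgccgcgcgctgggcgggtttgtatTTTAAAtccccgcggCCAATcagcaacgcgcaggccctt
Aurka, chr2:172370561-172370680, minus strand: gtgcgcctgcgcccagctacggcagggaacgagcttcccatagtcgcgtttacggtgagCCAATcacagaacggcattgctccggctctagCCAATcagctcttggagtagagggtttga
Ube2c, chr2:164769819-164769938, plus strand: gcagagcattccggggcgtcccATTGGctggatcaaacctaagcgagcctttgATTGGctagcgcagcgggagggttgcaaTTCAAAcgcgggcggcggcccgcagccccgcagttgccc

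In Ube2c the matches lie on the opposite strand and read ATTGG and TTCAAA. All 6 printed windows held a CCAAT match, and all but that of Aurka held a CHR match, which in Ccnb1 and Plk1 was the TTTAAA variant. In Aurka the first CHR match lay just past the printed window, 18 bases after the start. In the full RefSeq window of 300 bases, CCAAT together with either CHR form occurred in 100% of the 6 promoters and in 10.7% of all 32851 promoters. Of the 134 other genes of mitosis on 8 lists described below, 110 had an entry, and 36.2% of their 127 promoters held both, against 15.2% for the promoters of S phase genes (28 of 35 genes with an entry). These are matches of letters and not bound sites.

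The libraries held 3742 to 6707 cells and 27140735 to 63049542 UMIs each. Summed over mitotic cells, the depth was 5868902 to 13213276 UMIs per library, lowest in brain replicate 1. Of 37556 distinct barcodes, 882 occurred in more than 1 library (20 to 56 per pair of libraries), and 333 mitotic cells carried such a barcode. No doublet caller was run. Replicate libraries of a site differed by more than sampling noise, so none was counted as a repeat of another.

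The share of tumour cells that were mitotic was close to 1 in 5 at each site and was not shown to differ between sites. In brain it was 23.2% (exact 95% binomial interval 21.5 to 24.9) in replicate 1 and 23.3% (22.0 to 24.6) in replicate 2. In liver it was 19.7% (18.5 to 20.9), 24.7% (23.4 to 26.0) and 24.8% (23.5 to 26.0). In subcutaneous tumours it was 20.9% (19.7 to 22.2), 18.7% (17.8 to 19.7) and 22.4% (21.2 to 23.6). These intervals cover counting error only. The liver libraries overlapped with both other sites, and the brain libraries lay above all 3 subcutaneous ones. The means were 23.2% ± 0.0529 (SD, n = 2) in brain, 23.0% ± 2.93 (n = 3) in liver and 20.7% ± 1.84 (n = 3) in subcutaneous tumours. An exact permutation test over 560 assignments of the libraries to the 3 sites gave p = 0.368. Brain exceeded subcutaneous by 2.58 percentage points (two-sided exact permutation p = 0.2, adjusted over 3 pairs 0.45), where 2 against 3 libraries cannot reach a p below 0.1.

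Cells differ in depth, so each tumour cell with at least 3000 UMIs was also thinned at random to that number, with mitotic set at 3 UMIs or more of the 6 genes. This left out 48 to 180 shallower tumour cells per library. The shares were then 23.9% and 24.8% in brain, 24.2%, 28.3% and 27.8% in liver, and 23.4%, 21.5% and 25.4% in subcutaneous tumours (exact permutation p = 0.179). Liver replicate 1 remained the lowest of its site, and brain no longer lay above every subcutaneous library. Of the 2078 cells below the eGFP and Mycl gate, 118 (5.68%) passed the same 0.1% share. By site this was 2.51% and 2.85% in brain, 8.33% to 10.5% in liver and 10.3% to 16.2% in subcutaneous tumours.

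**Figure D1:**
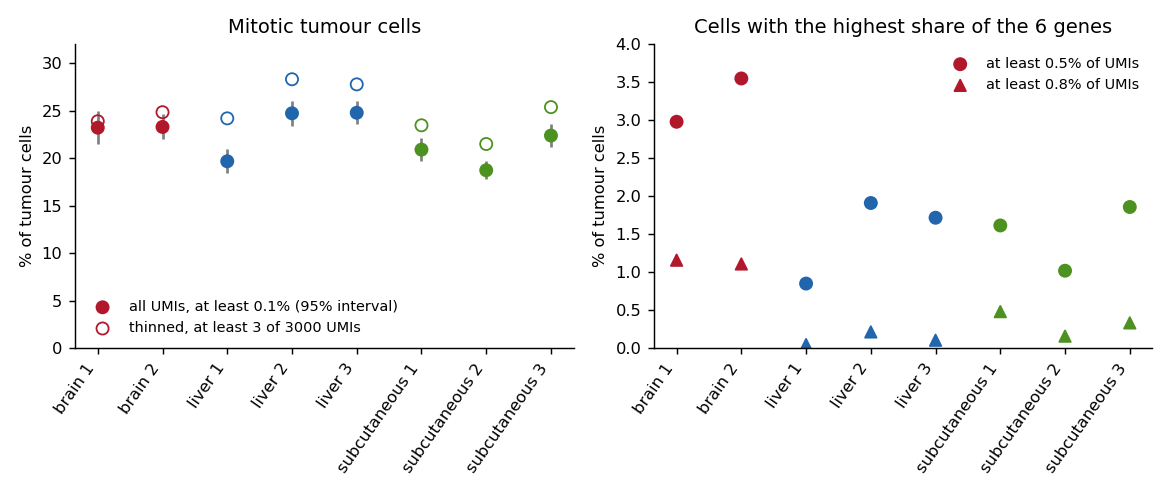
Left, the percentage of tumour cells called mitotic in each library, with exact 95% binomial intervals as bars on filled points; open points give the same after thinning each cell to 3000 UMIs. Right, the percentage of tumour cells with at least 0.5% (circles) or 0.8% (triangles) of UMIs from the 6 genes; the 2 brain libraries, at 2.98% and 3.55% by the 0.5% mark, lie above the 6 others.

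The class is the upper part of a continuous range. Just inside the threshold, 1046 mitotic cells held 0.1% to 0.12% of UMIs from the 6 genes, and just outside 1365 other cells held 0.08% to 0.1%. The median cell of a library just inside carried 10 to 13 UMIs of these genes, and just outside 7.5 to 11. The median mitotic cell carried 18 to 25 such UMIs, which was 0.183% to 0.222% of its total. After thinning, Cdc20 was detected in 69.4% to 80.3% of mitotic cells, 11.4% to 15.3% of other tumour cells and 4.81% to 13.6% of cells below the gate. The level in other tumour cells thus overlapped that of cells below the gate, where RNA free in the droplets can give such UMIs. Plk1 was detected in 24.7% to 36.1% of mitotic cells and 1.89% to 3.47% of other cells.

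At the 0.1% threshold, mitotic cells held more UMIs than other tumour cells of the same library in all 8 libraries. The median mitotic cell had 9624 to 11806 UMIs and the median other cell 7743 to 10488.5. The ratio of the 2 medians was 1.24 and 1.34 in brain, 1.04, 1.02 and 1.12 in liver, and 1.27, 1.06 and 1.19 in subcutaneous tumours. The 3 liver ratios lay low and overlapped only with subcutaneous replicate 2. An exact permutation test between sites gave p = 0.0893, and p = 0.0381 without subcutaneous replicate 2. That library is the 1 that overlapped liver, so the smaller p follows from which library was left out and shows no site difference. At a threshold of 0.2% the ratio fell below 1 in liver replicates 1 (0.937) and 2 (0.915), and without the 5% of tumour cells with the most UMIs it was 0.991 in liver replicate 2. The mitochondrial share was lower in mitotic cells in all 8 libraries.

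Genes of chromosome segregation were higher in mitotic cells of every library, while most other groups moved little. Levels are given in CPM (a gene's UMIs after the UMIs summed over the cells of 1 class in 1 library are scaled to 1000000), and a shift is the log2 ratio of mitotic to other cells in a library after adding 1 CPM. These shifts rest on the contrast the rule drew, so they are described with no test. Of 13006 genes, 166 (1.28%) were at least 2-fold higher in mitotic cells in each of the 8 libraries and 5 (0.0384%) at least 2-fold lower. The 8 mitosis lists below, 134 measured genes in all, held 78 of the 166. Any higher value in all 8 held for 15.9% of genes and any lower value for 20.6%, and the median shift over all genes was -0.03.

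The 6 genes of the rule set the scale. Cdc20, the activator that starts anaphase, stood at 1022 and 1030 CPM in mitotic cells of brain, at 511, 563 and 651 CPM in liver, and at 672, 586 and 643 CPM in subcutaneous tumours, against 47.5 to 64.2 CPM in other cells. Its level in mitotic cells of brain was thus above that of every other library. Ube2c, its partner enzyme, ranged from 819 to 1053 CPM over the 8 libraries and its sites overlapped. Ccnb1, a B-type cyclin, ranged from 237 to 421 CPM and Ccnb2, the second B-type cyclin, from 182 to 247 CPM. The kinases Plk1 (102 to 165 CPM) and Aurka (132 to 208 CPM) also overlapped between sites.

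Genes of mitotic entry outside the rule were higher, with a median shift of 1.47 over 19 genes, of which 10 were at least 2-fold higher in all 8 libraries and 17 higher in all 8. Cks2, a Cdk1 subunit, stood at 742 and 712 CPM in mitotic cells of brain, 570, 593 and 620 CPM in liver and 797, 615 and 675 CPM in subcutaneous tumours, and at 96.5 to 132 CPM in other cells. Cdk1 itself had a shift of 2.17 ± 0.19 (SD over 8 libraries) and Ccna2, the A-type cyclin of S phase and G2, 2.69 ± 0.22. Cdc25c, the phosphatase that activates Cdk1, shifted by 3.01. The inhibitory kinases Wee1 and Pkmyt1 had smaller shifts, of 0.31 ± 0.14 and 0.28 ± 0.09. Arpp19, a phosphatase inhibitor of mitotic entry, was lower in 7 of 8 libraries, with a mean shift of -0.05.

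Nearly every spindle and kinesin gene was higher. Of 24 genes, 23 were at least 2-fold higher in all 8 libraries and the median shift was 2.56, with library medians between 2.19 and 2.72. Numa1, a spindle pole protein, was the exception, with a shift of 0.31 ± 0.12. Kif2c, a microtubule-depolymerising kinesin, stood at 104 to 157 CPM in mitotic and 10.2 to 13.1 CPM in other cells, a shift of 3.35 ± 0.254. Tpx2, which activates Aurka on the spindle, shifted by 2.78 ± 0.19, and Hmmr, which also binds the spindle, by 3.21. Kif20a, a kinesin of the central spindle, shifted by 2.96.

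Pif1, a DNA helicase, had the largest shift of any gene that met the level threshold for naming (20 CPM in either class) outside the rule. It stood at 33.1 to 46.0 CPM in mitotic cells and 1.83 to 3.83 CPM in other cells, a shift of 3.50 ± 0.251. Troap (3.31), Arhgef39 (3.14), Pimreg (3.13), the centrosomal kinase Nek2 (3.10) and Psrc1 (2.92) followed by the same rule. The values of Pif1 in mitotic and other cells did not overlap.

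Kinetochore genes had a median shift of 1.93 over 21 genes, 15 of them at least 2-fold higher in all 8 libraries and all 21 higher in all 8. Cenpf shifted by 3.10 ± 0.34 and Cenpe, the kinetochore kinesin, by 3.04. Cenpa, the centromere's own histone, stood at 572 to 684 CPM in mitotic and 62.3 to 130 CPM in other cells. Zwint was the smallest of the list, at 0.20 ± 0.07. The 8 spindle checkpoint genes, which hold back anaphase, were all higher in all 8 libraries (median 1.64), with Bub1b at 2.44 ± 0.16 and Mad2l1bp at 0.38 ± 0.13 among them.

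Of 19 condensation and cohesion genes, 18 were higher in all 8 libraries. The median was 1.52 and 12 were at least 2-fold higher in all 8 libraries. Top2a, which untangles chromosomes, shifted by 2.12 ± 0.35, the condensin subunit Smc4 by 1.77 ± 0.14 and securin, Pttg1, by 2.77 ± 0.22. The cohesin subunits Smc3 (0.03 ± 0.08) and Smc1a (0.46 ± 0.05) and the loader Nipbl (0.08 ± 0.05) had much smaller shifts. Of the 12 cytokinesis genes, 10 were at least 2-fold higher in all 8 libraries (median 2.40). Cdca8 and Birc5 of the chromosomal passenger complex shifted by 2.75 ± 0.28 and 2.54 ± 0.24, while the small GTPase Rhoa shifted by 0.15 ± 0.04.

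Over 18 genes of the anaphase-promoting complex and mitotic exit the median shift was 0.30, with 12 higher in all 8 libraries, 3 of them at least 2-fold, and 2 lower in all 8. Ube2s, which extends ubiquitin chains, stood at 1336 to 1538 CPM in mitotic and 549 to 693 CPM in other cells, while the scaffold subunit Anapc5 shifted by 0.06 ± 0.03 and Cdc26 by -0.11 ± 0.04. The 13 centrosome genes were higher in all 8 libraries without exception, but none by 2-fold in every library (median 0.68). Plk4, the kinase of centriole duplication, shifted by 1.25 ± 0.27.

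Genes of DNA replication were lower, but not all of them. Over 35 S phase genes the median shift was -0.35, with library medians from -0.46 to -0.20, and 21 were lower and 8 higher in all 8 libraries. Ung, which removes uracil from DNA, stood at 40.2 and 47.7 CPM in mitotic cells of brain, 67.1, 64.6 and 57.3 CPM in liver and 33.7, 52.8 and 42.9 CPM in subcutaneous tumours, against 195 to 252 CPM in other cells. That was a shift of -2.15 ± 0.309, the lowest of the genes named by the rule. The helicase subunits Mcm2 (-1.18 ± 0.135) and Mcm4 (-1.02) and the transcription factor E2f1 (-1.0) were also lower. Among the 8 that were higher were Rrm2 (0.82 ± 0.215) and Rrm1 (0.28), which make deoxynucleotides, Tk1 (0.77), and the repair gene Exo1 (0.57).

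Beyond the lists of mitosis and S phase the median shifts were small. The median shift was -0.02 over 20 neuroendocrine genes, -0.07 over the immediate early genes, and 0.01 over the 17 G1 cyclins and Cdk inhibitors. Within that last list Cdkn2d, a Cdk4 and Cdk6 inhibitor, stood at 219 to 309 CPM in mitotic and 58.0 to 80.7 CPM in other cells, a shift of 2.00 ± 0.153. The Notch ligand Dll3 (-0.69 ± 0.18) and chromogranin Chga (-0.46 ± 0.09) were lower. Glycolysis and hypoxia genes had a median of -0.24 over 19 genes, 14 of them lower in all 8 libraries. Cytosolic ribosomal proteins had a median of -0.09 over 80 genes, 64 of them lower in all 8, and the 13 mitochondrially encoded genes a median of -0.16.

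The remaining genes named by the rule for a lower level were Alkbh2 (-1.30), a DNA repair enzyme, the glycolytic Aldoc (-1.27), Gpd1 (-1.15), Paqr4 (-1.13), Cd164l2 (-1.10), Tfap2c (-1.07), Gamt (-1.03) and Cd74 (-1.0 ± 1.0). Cd74, the invariant chain of antigen-presenting cells, varied most. It stood at 70.7 and 42.9 CPM in mitotic cells of brain, 0.205, 2.72 and 0.08 CPM in liver, and 9.13, 0 and 0 CPM in subcutaneous tumours.

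**Figure D2:**
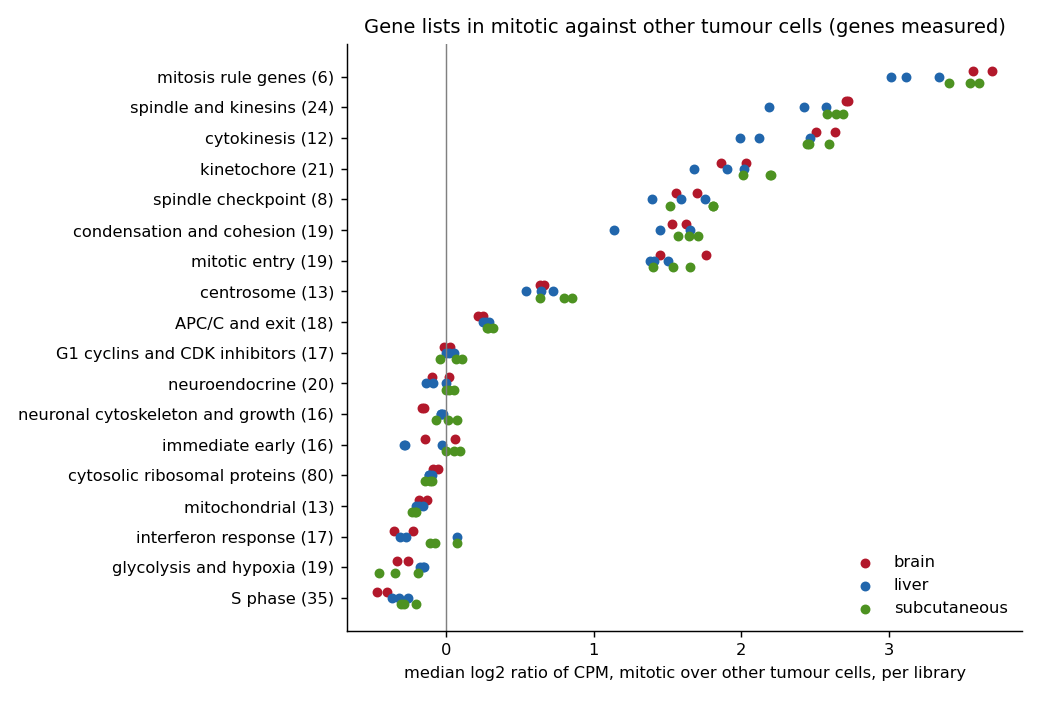
Median log2 ratio of mitotic to other tumour cells for 18 gene lists, 1 point per library, coloured by site. Libraries lie close together within most lists: the spindle list spans 2.19 to 2.72 and the S phase list -0.46 to -0.20.

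The same genes were followed along the range of the rule, from cells with no UMI of the 6 genes to cells at 0.5% and above. Summed spindle genes rose from 206 to 4113 CPM in brain, from 175 to 4560 CPM in liver and from 175 to 5099 CPM in subcutaneous tumours (means of the libraries of a site). Summed S phase genes fell from 5911 to 2499 CPM in brain, from 4933 to 2456 CPM in liver and from 5040 to 3045 CPM in subcutaneous tumours, with most of the fall above the 0.1% threshold. Ribosomal protein genes went from 233425 to 198573 CPM in brain, from 259996 to 214046 CPM in liver and from 226150 to 175993 CPM in subcutaneous tumours. These sums use the rule as their axis and carry no test.

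**Figure D3:**
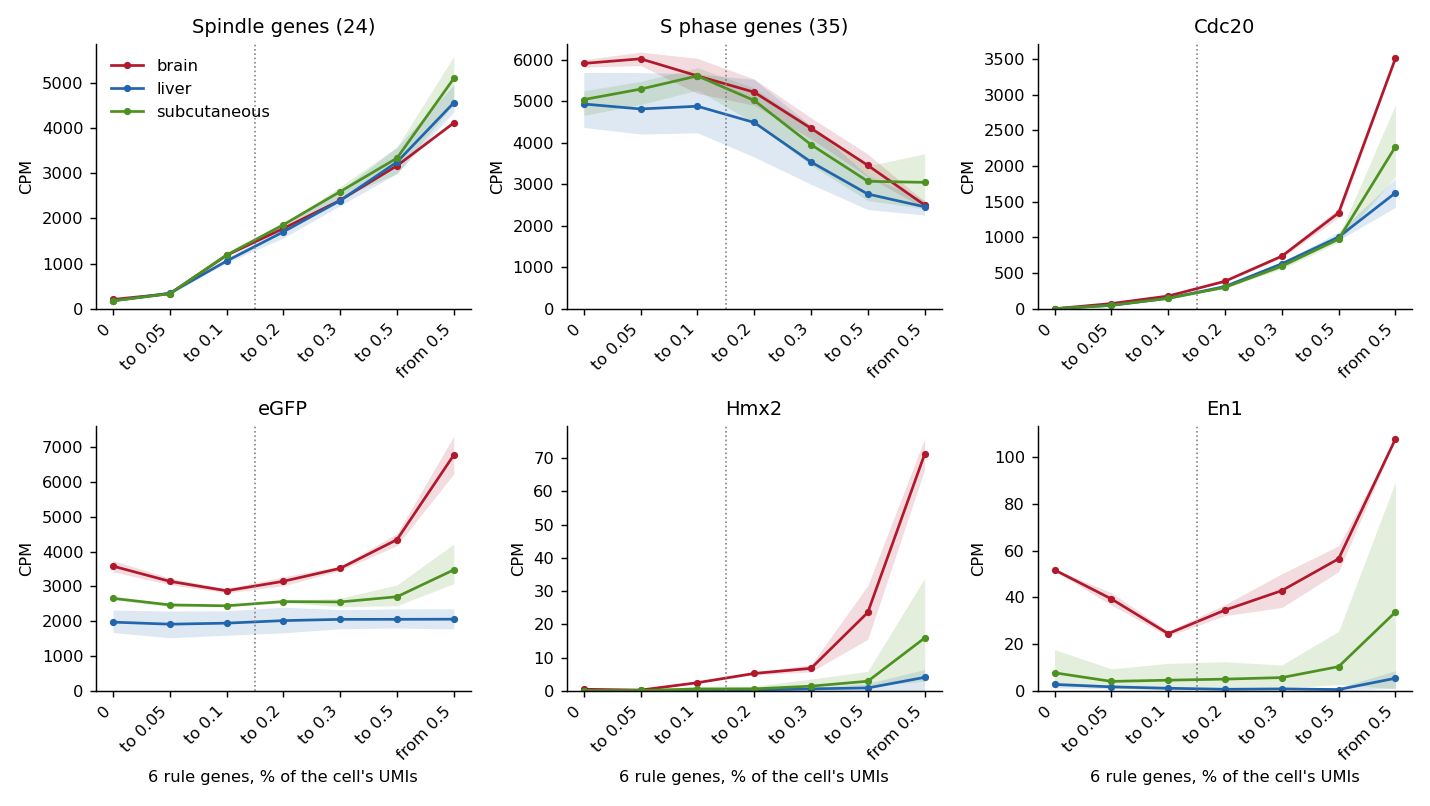
Level in CPM (vertical axis) against the share of UMIs from the 6 genes (bins on the horizontal axis) for summed spindle genes, summed S phase genes, Cdc20, eGFP, Hmx2 and En1. Lines are the mean of the libraries of a site, bands the lowest to highest library, and the dotted line is the 0.1% threshold; spindle genes climb at every site while Hmx2 climbs mainly in brain, to 71.1 CPM.

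The upper end of the range held a larger share of the tumour cells in brain. Cells with at least 0.5% of UMIs from the 6 genes made up 2.98% and 3.55% of tumour cells in brain, 0.851%, 1.91% and 1.72% in liver, and 1.61%, 1.02% and 1.86% in subcutaneous tumours. Both brain libraries lay above the 6 others. The 0.5% threshold was chosen after seeing the data and uses the values of the rule, so these shares are a description. At 0.8% the shares were 1.16% and 1.11% in brain, 0.0486%, 0.215% and 0.106% in liver, and 0.482%, 0.159% and 0.334% in subcutaneous tumours. With cells thinned to 3000 UMIs and 15 UMIs or more, they were 3.58% and 3.86% in brain, 1.31% to 2.41% in liver and 1.34% to 2.39% in subcutaneous tumours, so the brain libraries were also highest at matched depth.

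Those strongly mitotic brain cells differed in other genes from the weakly mitotic ones (0.1% to 0.3%) of the same library; the genes of this paragraph were chosen after their values were seen, and none is tested. Hmx2, a homeobox gene, stood at 75.8 against 5.12 CPM in brain replicate 1 and 66.4 against 6.34 CPM in replicate 2. In liver it stayed at or under 6.44 CPM in strongly mitotic cells, and in subcutaneous tumours it was 33.9, 10.8 and 2.93 CPM. Emp1, a membrane protein gene, was 89.1 against 9.54 and 77.5 against 7.82 CPM in brain. The homeobox genes En1 (108 against 36.6 and 108 against 37.8 CPM) and Hoxd10 (70.5 against 11.4 and 69.2 against 16.7 CPM) were higher in the same cells of brain. The lung surfactant gene Sftpc was lower there, at 38.6 against 187 and 19.4 against 191 CPM. Neither Sftpc nor Emp1 changed in brain alone. From cells with no UMI of the 6 genes to strongly mitotic cells, mean Sftpc fell from 389 to 110 CPM in liver. Under the skin it fell from 299 to 109 CPM. Mean Emp1 rose from 0.779 to 20.1 CPM in liver and from 0.776 to 36.4 CPM under the skin.

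The genes of the tumour gate moved in opposite directions in brain. In brain, eGFP stood at 7316 against 3162 and 6235 against 3372 CPM in strongly against weakly mitotic cells, and Mycl at 2154 against 3855 and 1524 against 3094 CPM. In liver eGFP was level between the same classes, at 1781 against 1697, 2043 against 2002 and 2357 against 2383 CPM. In subcutaneous tumours it was 4219 against 2535, 3132 against 2569 and 3081 against 2581 CPM. Cdc20 in strongly mitotic cells was 3534 and 3482 CPM in brain, 1421, 1627 and 1824 CPM in liver and 2859, 2104 and 1847 CPM in subcutaneous tumours. Most other rule genes did not follow this order in the same cells. As site means in brain, liver and subcutaneous tumours, Ccnb1 was 762, 930 and 1072 CPM and Plk1 268, 341 and 437 CPM. Aurka (358, 370 and 514 CPM) and Ube2c (2004, 2425 and 2123 CPM) were also lowest in brain. Ccnb2, at 458, 414 and 428 CPM, was highest in brain.

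A group of tumour cells with a UMI of En1, Des, Hoxd9 or Hoxd10 made up a large share of this upper end in brain and in subcutaneous replicate 1, and a small one in the other libraries. After thinning, 22.4% and 25.2% of tumour cells had such a UMI in brain, 1.97%, 1.67% and 1.37% in liver, and 8.21%, 1.90% and 2.16% in subcutaneous tumours. Among cells at 0.5% and above they were 31 of 66 (47.0%) and 73 of 142 (51.4%) in brain, and 21 of 61 (34.4%) in subcutaneous replicate 1. They were 2 of 33, 4 of 71 and 1 of 75 in liver, and 5 of 62 and 2 of 85 in subcutaneous replicates 2 and 3. Among all mitotic cells they were 19.7% and 22.5% in brain, close to their share of all tumour cells there. Within brain, 19.96% and 20.8% of cells with such a UMI were mitotic, against 23.5% and 24.1% of cells without one, so these cells were no more often mitotic. Cells at 0.5% and above were 6.13% and 7.22% of brain cells with such a UMI and 1.99% and 2.30% of those without. In subcutaneous replicate 1 the same shares were 6.42% and 1.09%. The share was also higher with such a UMI in liver replicates 1 and 2 and subcutaneous replicate 2, but on only 2, 4 and 5 cells. It was 5.88% against 1.67% in liver replicate 2 and 4.31% against 0.952% in subcutaneous replicate 2. The 2 shares lay close together in liver replicate 3 (1.61% and 1.65%) and subcutaneous replicate 3 (1.96% and 1.80%), on 1 and 2 cells with such a UMI. Below the gate, 1.92% and 1.91% of brain cells had such a UMI. In subcutaneous replicate 1 it was 6.45%, not far under the 8.21% of its tumour cells. It was 0% in the liver libraries and in subcutaneous replicate 2, and 2.27% in subcutaneous replicate 3. These 4 genes were also chosen after their values were seen.

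Between sites, mitotic cells were compared by summing UMIs over the mitotic cells of each library and testing 12203 genes with edgeR's quasi-likelihood test and Benjamini-Hochberg adjustment. The rule did not use site, but it admitted cells by the level of the 6 genes and of eGFP and Mycl, so differences between sites in those genes, or in genes that move with them, are not independent of the choice. At an adjusted p under 0.05, 1299 genes (10.6%) were higher and 878 (7.19%) lower in mitotic cells of brain than of liver. Against subcutaneous tumours, 758 (6.21%) were higher and 438 (3.59%) lower in brain. Liver and subcutaneous differed least, with 101 genes (0.828%) higher and 182 (1.49%) lower in liver. Brain against liver and brain against subcutaneous share the brain libraries.

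These counts depended on single libraries. The 2177 genes of brain against liver became 894 without brain replicate 1, 824 without brain replicate 2, 1354 without liver replicate 1 and 1065 without liver replicate 2. The 1196 of brain against subcutaneous became 261 and 390 without brain replicates 1 and 2, and 3024, 546 and 477 without subcutaneous replicates 1, 2 and 3. The 283 of liver against subcutaneous became 83 and 30 without liver replicates 1 and 2, 714, 115 and 177 without subcutaneous replicates 1, 2 and 3, and 171 and 172 without brain replicates 1 and 2. Without a brain replicate the lone brain library is assumed to vary like the others.

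The genes of division were set beside all genes tested, and they carry the limit just given. Of the 134 genes of the 8 mitosis lists, 16 were higher and 2 lower in brain than in liver, which is 11.9% and 1.49% of them beside 10.6% and 7.19% of all genes. Against subcutaneous, where 6.21% and 3.59% of all genes were called, 6 were higher and 0 lower in brain by edgeR (14 and 7 at an unadjusted p under 0.05; DESeq2 7 and 0). In liver against subcutaneous, where 0.828% and 1.49% of all genes were called, 0 were higher and 2 lower by edgeR (1 and 14 unadjusted; DESeq2 0 and 3). The median differences were 0.13, 0.03 and -0.11 on the log2 scale. In other tumour cells the same 134 genes gave 5 higher and 12 lower in brain than in liver. The 16 higher in brain than in liver became 7 and 4 without brain replicates 1 and 2, 7 without liver replicate 2, and 28 and 29 without liver replicate 3 and subcutaneous replicate 1. The 6 became 1 or 2 without either brain replicate or subcutaneous replicate 2 or 3, 3 without liver replicate 2, and 11 without subcutaneous replicate 1. The 2 lower in liver were 6 without liver replicate 3, 1 without liver replicate 1 and 0 without liver replicate 2.

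Bora, which activates Plk1 through Aurka, is described with no p for the same reason. In mitotic cells it stood at 76.7 and 77.3 CPM in brain, 42.6, 40.6 and 41.1 CPM in liver, and 49.98, 45.3 and 49.7 CPM in subcutaneous tumours, with no overlap. Against liver, brain was higher by 0.81 on the log2 scale (SE 0.103), and against subcutaneous by 0.71 (SE 0.102). In other tumour cells Bora lay between 10.8 and 14.5 CPM at all sites. Top2a was 473 and 507 CPM in brain and 271, 277 and 307 CPM in liver (log2 difference 0.70). Fbxo5, which inhibits the anaphase-promoting complex, was lowest in liver, at 83.5, 92.9 and 132 CPM against 207, 220 and 226 CPM in subcutaneous tumours (log2 difference -0.96).

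Interferon and antigen presentation genes were higher in mitotic cells of brain than at the other sites. Of all genes tested, 10.6% were higher in brain than in liver and 6.21% higher in brain than in subcutaneous tumours. Between liver and subcutaneous, 0.828% were higher and 1.49% lower in liver. Of 17 interferon response genes, 14 were higher in brain than in liver (median log2 difference 5.22), 12 were higher than in subcutaneous tumours (median 3.29), and 0 differed between liver and subcutaneous (1 higher and 2 lower at an unadjusted p under 0.05; DESeq2 1 higher). In other tumour cells these counts were 15, 14 and 0. Without brain replicate 1 the first 2 counts were 9 and 4. Against subcutaneous it was 7 without brain replicate 2. Bst2, which tethers budding viruses, stood at 73.8 and 98.6 CPM in brain, 1.23, 0.510 and 0.640 CPM in liver, and 4.32, 0.0824 and 0.151 CPM in subcutaneous tumours. It was higher in both brain libraries than in any other, with a log2 difference to liver of 6.72 (SE 0.937, adjusted p = 0.0059 by edgeR) and to subcutaneous of 6.01 (adjusted p = 0.0112, and 0.0505 without brain replicate 2). The MHC class I gene H2-K1 was 64.4 and 41.4 CPM in brain, 3.07, 2.04 and 2.48 CPM in liver and 12.6, 4.29 and 3.25 CPM in subcutaneous tumours. B2m, its light chain, was 201 and 121 CPM in brain against 44.6 to 76.7 CPM elsewhere (log2 difference to liver 1.60, edgeR adjusted p = 0.0059).

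Macrophage, microglia and glial transcripts were also higher in the mitotic sums of brain. The 14 macrophage and microglia markers, all detected there, summed to 144 to 468 CPM in mitotic cells of brain, 40.02 to 48.6 CPM in liver and 40.6 to 64.3 CPM in subcutaneous tumours, against 38509 to 40630 CPM in brain cells below the gate. In other tumour cells of brain the sum was 192 to 742 CPM. The 8 astrocyte and oligodendrocyte markers summed to 142 to 300 CPM in mitotic cells of brain and 44.8 to 53.3 CPM elsewhere. Not every host list was highest in brain. Neutrophil (141 CPM) and erythroid (147 CPM) markers were highest in mitotic cells of liver replicate 2. Fibroblast and pericyte markers were highest in subcutaneous replicate 1 (50.4 CPM). The part of host RNA in the brain differences was not tested. Apoe, a lipid carrier abundant in macrophages and astrocytes, was higher in brain by a log2 difference of 3.65 against liver (edgeR adjusted p = 0.0241) and 4.02 against subcutaneous (edgeR adjusted p = 0.0287). Without brain replicate 1 these were 2.59 (adjusted p = 0.0787) and 2.95 (adjusted p = 0.0954), and leaving out liver replicate 2 or 3, or subcutaneous replicate 2 or 3, also took the adjusted p above 0.05 in at least 1 of the comparisons, to between 0.0507 and 0.139.

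Hypoxia and glycolysis genes ran the other way, lowest in brain and highest under the skin. Of all genes tested, 7.19% were lower and 10.6% higher in brain than in liver. The shares lower were 3.59% for brain against subcutaneous and 1.49% for liver against subcutaneous. Of 19 genes, 11 were lower and 1 higher in mitotic cells of brain than of liver (median -0.75), 17 were lower in brain than in subcutaneous tumours (median -1.44), and 12 were lower in liver than in subcutaneous tumours (median -0.93). In other tumour cells 12 were lower and 3 higher in brain than in liver, and the other two contrasts gave 18 and 12 lower. Egln3, an oxygen-sensing prolyl hydroxylase, stood at 8.69 and 9.02 CPM in brain, 28.8, 29.3 and 27.5 CPM in liver and 55.1, 89.0 and 83.6 CPM in subcutaneous tumours, 3 ranges that did not overlap. Its log2 difference was -3.05 (SE 0.210, edgeR adjusted p = 5.22e-05) for brain against subcutaneous and -1.29 (edgeR adjusted p = 0.00275) for liver against subcutaneous. Bnip3, a mitophagy gene, fell in the same order, from 263, 377 and 349 CPM under the skin to 146, 121 and 128 CPM in liver and 59.1 and 68.0 CPM in brain. Ldha, lactate dehydrogenase, was 524 and 765 CPM in brain and 1114 to 1800 CPM elsewhere. In other tumour cells these 3 genes had the same order of sites. The count for brain against liver was 7 and 6 lower without brain replicates 1 and 2, and that for liver against subcutaneous was 5 without liver replicate 2.

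The immediate early genes Junb and Fos were higher in brain. Junb stood at 958 and 752 CPM in mitotic cells of brain, 126, 96.2 and 164 CPM in liver and 366, 216 and 270 CPM in subcutaneous tumours, a log2 difference to liver of 2.66 (edgeR adjusted p = 0.000617). Fos was 268 and 162 CPM in brain and 28.4 to 90.1 CPM elsewhere. Of the 16 genes of this list, 6 were higher and 2 lower in brain than in liver, beside 10.6% and 7.19% of all genes. Jun was among the lower (log2 difference -0.93, edgeR adjusted p = 0.0472). Without brain replicate 2, liver replicate 1 or 2, or subcutaneous replicate 2 or 3, 0 of the list were lower.

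Further genes named by the rule for brain against liver were Tm4sf1, a surface tetraspanin relative, and Lingo1 on the higher side. Tm4sf1 stood at 69.5 and 103 CPM in brain, 1.23, 0.510 and 1.04 CPM in liver and 29.2, 9.07 and 3.33 CPM in subcutaneous tumours (log2 difference to liver 6.47, edgeR adjusted p = 0.00962). Its strongly mitotic brain cells held 191 and 292 CPM. Lower in brain than in liver were Fbxo2 (log2 difference -2.70, edgeR adjusted p = 0.0105), Tspan1 (-2.40, adjusted p = 0.00235), the potassium channel Kcnh3 (-2.32, adjusted p = 0.00114) and Ptgr1 (-2.28, adjusted p = 0.0381). The adjusted p of Fbxo2 was 0.0520 and 0.0970 without brain replicates 1 and 2. That of Ptgr1 rose to between 0.0598 and 0.153 when any 1 library other than subcutaneous replicate 1 was left out.

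Against subcutaneous tumours, the rule named Ifi27 (log2 difference 2.94, edgeR adjusted p = 0.00102) and the prohormone convertase Pcsk1 (2.38, adjusted p = 0.0218) as higher in brain, and Bnip3 (-2.33, adjusted p = 5.22e-05), Tnfrsf12a (-2.10, adjusted p = 0.0127) and the collagen prolyl hydroxylase P4ha1 (-2.09, adjusted p = 0.00163) as lower. Pcsk1 missed the threshold without either brain replicate (adjusted p = 0.0729 and 0.0997) and without subcutaneous replicate 2 or 3 (0.0690 and 0.0581). Tnfrsf12a missed it without either brain replicate (0.0927 and 0.112).

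Between liver and subcutaneous, Bex4, a small gene of the Bex family, differed without overlap. It stood at 29.3, 28.2 and 27.8 CPM in mitotic cells of liver and 8.05, 8.98 and 9.46 CPM in subcutaneous tumours, with 29.6 and 28.4 CPM in brain. The log2 difference of liver was 1.81 (SE 0.117, edgeR adjusted p = 7.33e-05), and in other tumour cells it was 1.70. Kcnh3 (1.48, adjusted p = 0.0132), Tmem266 (1.27, adjusted p = 0.00597) and the Wnt antagonist Sfrp5 (1.24, adjusted p = 0.0447) were also higher in liver. The metal-binding Mt1 was lower, at 402, 329 and 372 CPM in liver and 1486, 1273 and 1330 CPM in subcutaneous tumours (log2 difference -1.77, edgeR adjusted p = 9.7e-05), as were Mt2 (-1.78), the stress gene Chac1 (-1.91, adjusted p = 0.0386) and the fatty acid receptor Ffar4 (-1.56, adjusted p = 0.000124).

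Several of these calls rested on single libraries. Sfrp5 missed the threshold without any 1 library other than liver replicate 3 and subcutaneous replicate 1 (adjusted p = 0.0616 to 0.188), and Chac1 without any 1 other than subcutaneous replicate 1 (0.0576 to 0.143). Kcnh3 missed it without liver replicate 1 (0.0766), liver replicate 2 (0.0786) or subcutaneous replicate 2 (0.0740), and Tmem266 without liver replicate 2 (0.0558).

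**Figure D4:**
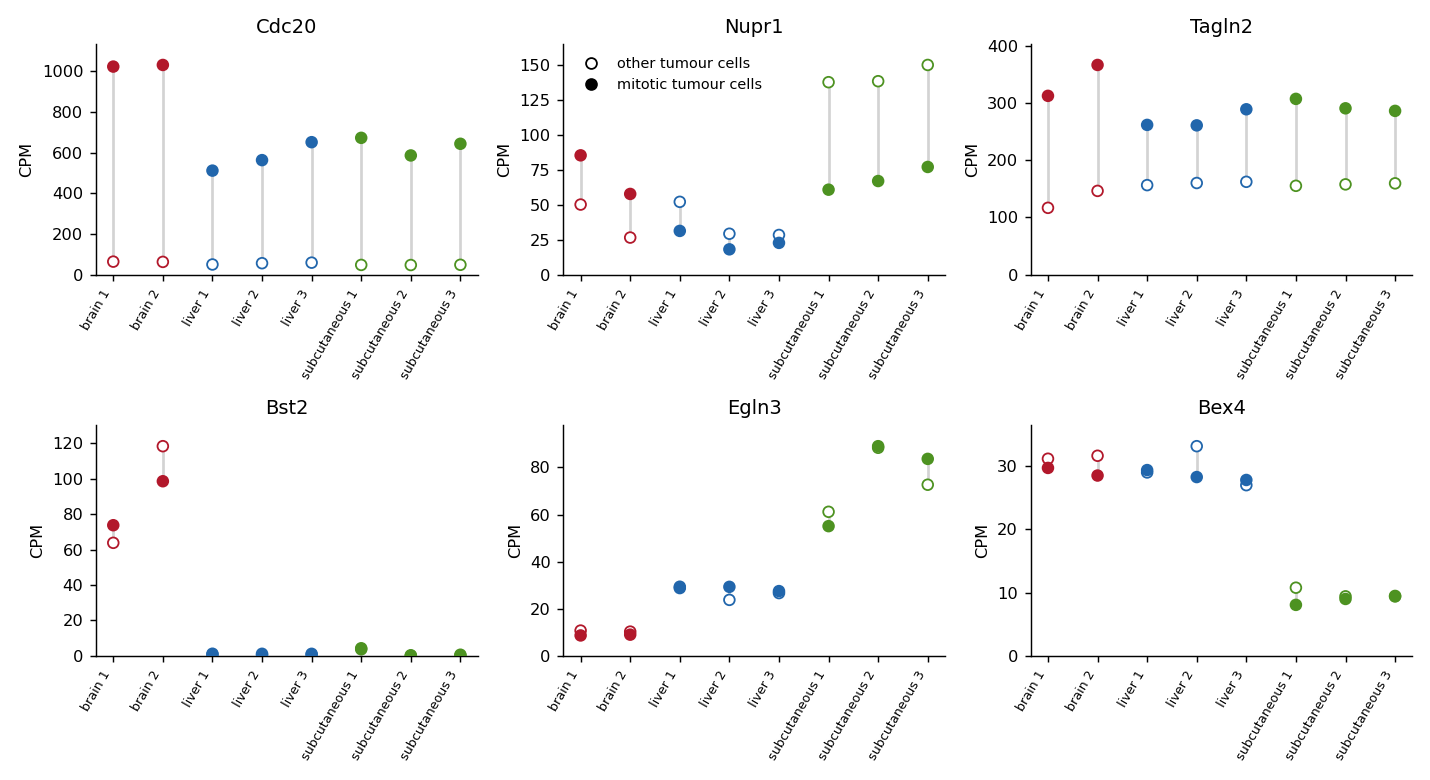
CPM of Cdc20, Nupr1, Tagln2, Bst2, Egln3 and Bex4 in each library, with open points for other tumour cells and filled points for mitotic cells. Bst2, Egln3 and Bex4 differ between sites alike in both classes, while mitotic Nupr1 lies above other cells in brain (85.2 against 50.1 and 57.6 against 26.5 CPM) and below them in the other libraries.

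Whether division shifted genes by different amounts at different sites was asked in 1 model over the 16 sums of mitotic and other cells, with each library as a block. By edgeR's quasi-likelihood test of the interaction, 475 of 13006 genes (3.65%) passed an adjusted p of 0.05, and 2229 had an unadjusted p under 0.05. Of the 475, 293 had their highest shift in brain and 217 their lowest in liver. DESeq2 called 142, of which 115 were among the 475. Without brain replicates 1 and 2 the count was 273 and 201, without liver replicate 2 it was 279 and without liver replicate 3 it was 732. The median mitotic cell's share of the 6 genes overlapped between sites, at 0.209% and 0.222% in brain, 0.183% to 0.201% in liver and 0.186% to 0.220% under the skin. The part of this share and of the UMI ratio in these counts was not tested. Without cells at 0.5% and above, 385 genes passed.

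For genes of mitosis the interaction compares the rule's own contrast between sites, so its counts are a description and support nothing. Of the 6 rule genes themselves 4 passed, Cdc20, Ccnb2, Ccnb1 and Plk1, all with their lowest shift in liver, and the median shift of the 6 was 3.74 in brain, 3.18 in liver and 3.56 under the skin. Of the 134 genes of the 8 lists, 24 passed (17.9%), beside 3.65% of all genes. All 24 had their lowest shift in liver, as had 217 of the 475 genes called in all. The shift was highest in brain for 21 of the 24 and in subcutaneous tumours for 3. By role the calls were 6 of 19 entry genes, 7 of 24 spindle genes, 4 of 21 kinetochore genes and 0 of 12 cytokinesis genes (7 at an unadjusted p under 0.05, DESeq2 4). The lists are small, so no contrast between roles is drawn. The 24 became 18 with DESeq2, 15 without cells at 0.5% and above and, leaving out 1 library, 14 (brain replicate 2), 16 (liver replicate 2), 65 (liver replicate 3) or 15 (subcutaneous replicate 3). Cks2 shifted by 2.85 in brain, 2.39 in liver and 2.64 under the skin, and Bora by 2.48, 1.76 and 2.02. Ncapd2, a condensin subunit, shifted by 1.66, 1.28 and 1.64. Of the 35 S phase genes 3 passed (8.57%, beside 3.65% of all genes), namely Mcm2, Mcm3 and Cdc6. Mcm2 shifted by -1.28 in brain, -1.07 in liver and -1.25 under the skin.

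Outside the cell cycle, Nupr1, a stress-induced chromatin protein gene, had CPM shifts of opposite sign between sites. It stood at 85.2 and 57.6 CPM in mitotic cells of brain against 50.1 and 26.5 CPM in other cells. In liver it was 31.2, 18.1 and 22.7 CPM against 52.0, 29.2 and 28.4 CPM, and in subcutaneous tumours 60.7, 66.8 and 76.9 CPM against 137, 138 and 150 CPM. Its shift in CPM was thus positive in both brain libraries and negative in the 6 others, and brain exceeded liver by 1.59 (SE 0.112, edgeR adjusted p = 4.14e-10). At 3000 UMIs a cell, however, it was detected slightly more often in mitotic than in other cells of liver replicates 2 (4.85% against 4.67%) and 3 (5.67% against 5.37%).

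Tagln2, an actin-binding protein, was higher in mitotic cells of every library, with shifts of 1.41 and 1.32 in brain and 0.70 to 0.98 elsewhere (adjusted p = 4.5e-09). Tubb6, a beta-tubulin, shifted by 0.80 and 0.81 in brain and by 0.01 to 0.30 elsewhere (adjusted p = 2.87e-08). Manf, a protein of the endoplasmic reticulum stress response, was level in brain (0.00 and 0.03) and lower in mitotic cells under the skin (-0.54, -0.35 and -0.37; adjusted p = 1.16e-07). Elavl4, a neuronal RNA-binding protein, was lower in mitotic cells of brain (-0.27 and -0.17) and higher in the other 6 libraries (0.18 to 0.44; adjusted p = 1.16e-07). Each adjusted p is from edgeR's quasi-likelihood test. Cd74 had the smallest adjusted p, 8.27e-13, but 0.396 without the 5% of tumour cells with the most UMIs in each library.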

How the data were processed

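The authors deposited, per sample, a matrix of UMI counts (whole numbers, per the file headers in the Cell Ranger 3.0.0 format); the submitters' processing notes name Cell Ranger, STAR and mm10. The lowest deposited cell had 501 UMIs, so barcodes had been filtered. From these counts, cells were selected and UMIs summed per library and class over 22056 genes. Doublets were not removed. The members, gene lists and thresholds were chosen with earlier results of these data known.

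Sites came from the labels. Site contrasts and the interaction were fitted in R 4.3.3 with edgeR 4.0.16 (TMM, filterByExpr, robust quasi-likelihood F tests, Benjamini-Hochberg over all genes tested, 5 residual degrees of freedom). The biological coefficient of variation was 13.9% for mitotic sums and 3.16% for the interaction. Shares were compared by exact permutation (scipy 1.17.1, Python 3.11.15). DESeq2 1.42.0, other thresholds, filters, depths and left-out libraries were alternatives. The scripts were tested on simulated data.

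Named genes followed a rule: the 12 largest shifts each way with at least 20 CPM and 1 sign in 8 libraries; the 4 largest called differences each way per site contrast with at least 20 CPM and no overlap; the 6 smallest interaction p-values with at least 20 CPM; and list members with the highest level or as examples by role. List members named for a site difference or interaction (Bora, Top2a, Fbxo5, H2-K1, B2m, Junb, Fos, Jun, Ncapd2, Mcm3, Cdc6), and those named for a small or opposite shift, were chosen after their values were seen. Promoters came from RefSeq.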

Additional observations from a re-analysis of the deposited data

Results flagged for a closer look

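For 6 genes the shift from other to mitotic tumour cells differed between sites by edgeR's test of the interaction. As brain minus liver on the log2 scale, the difference was 2.625 for Cd74, 1.588 for Nupr1, 0.6543 for Tagln2, 0.6743 for Tubb6, 0.1784 for Manf and -0.4195 for Elavl4. In CPM, Nupr1 and Elavl4 were shifted in opposite directions in the brain libraries and in the 6 others. In mitotic cells Cd74 was at 0 CPM in subcutaneous replicates 2 and 3, and its call was lost without the 5% of tumour cells with the most UMIs (adjusted p = 0.396).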

How the results depend on the processing

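The mitotic share of brain minus the mean of the others was 1.38 percentage points, -1.47 at a threshold of 0.05% (exact permutation p = 0.0607), -0.74 with cells thinned to 3000 UMIs (p = 0.179) and 1.77 at 0.5% (a threshold chosen after seeing the data). It ranged from 0.54 to 1.81 when 1 library was left out. The same difference of the UMI ratio was 0.172, and 0.124 to 0.220 without 1 library. It was 0.144 (exact permutation p = 0.0381) without subcutaneous replicate 2, the 1 library that overlapped liver, so this p shows no site difference. The 171 genes shifted at least 2-fold in all 8 libraries ranged from 130 to 214 over all settings tried. Brain against liver, 2177 genes, gave 1215 on thinned cells and 824 to 3237 without 1 library. Brain against subcutaneous, 1196, gave 583 with only those sites in the fit, 639 on thinned cells and 261 to 3024 without 1 library. Liver against subcutaneous, 283, gave 553 with DESeq2 and 30 to 714 without 1 library. The interaction, 475, gave 142 with DESeq2, 876 with no filter on low genes, 230 on thinned cells and 201 to 732 without 1 library. Thinned sums and fits without cells at 0.5% and above were added after seeing the data. The cause of these changes was not tested.

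With the replicate number as a block, the share gave an exact permutation p of 0.444 and the 3 site contrasts 1996, 942 and 302 genes. Deviations of same-numbered libraries correlated at -0.05 to 0.23 (2 of 7 pairs over 0.1), and 6 of 8 libraries correlated best with their own number. The deviations of the 2 brain libraries mirror each other, so their pairs are not independent. These correlations therefore cannot decide whether same-numbered libraries share more than a number, and the labels do not say. The block took the adjusted p of Pcsk1 (brain against subcutaneous), Sfrp5, Chac1 and Kcnh3 (liver against subcutaneous) above 0.05, to between 0.0693 and 0.106. Precision is limited by 2 brain libraries and by the 5868902 UMIs of the smallest mitotic sum.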
